A study of Mus musculus with 8 samples.

Results

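Motile cilia genes are described here in basal cells of the mouse mammary gland. The set holds 48 of the 27164 genes in the deposited count tables, named gene by gene by symbol, and all 48 were found. The list was drawn up with earlier results of these data in view, and its members were selected on gene function and then split by their measured level: those below 1 CPM (counts per 1e+06 counts of a library) in every population were set apart. This left 28 members at 1 CPM or more in at least 1 population and 20 below it in all of them. The threshold uses measured levels, so the levels of the members are given as a description.

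The cells were FACS-sorted from untreated C57BL/6 females aged 10 weeks that all carried Lgr5-GFP-IRES-CreERT2, an allele in which a green fluorescent protein and an inducible Cre are made from the Lgr5 locus. Lgr5 is a receptor for R-spondins, and the second sort marker, Tspan8 (T8), is a tetraspanin of the cell surface. Sorting on both markers gave 4 basal populations, Lgr5+T8hi and Lgr5+T8- with the reporter and Lgr5-T8hi and Lgr5-T8- without it. Each has 2 single-end RNA-seq libraries, 1 in each of 2 batches named in the labels. The Lgr5 gate reads the reporter and not the receptor. The labels do not tell how many mice went into a library or whether libraries came from separate mice. A p-value here therefore reflects the spread among these libraries, which may be technical.

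A motile cilium is built on an axoneme of microtubule doublets around a central pair. Outer and inner dynein arms slide the doublets, the nexin-dynein regulatory complex and radial spokes control the sliding, and the dynein arms are assembled in the cytoplasm before transport. FOXJ1, helped by RFX factors, switches on most of these genes, and multiciliated cells first need GMNC and MCIDAS. Basal cells of the mammary gland are contractile, and the cilium usually described on them is a single, non-motile primary cilium. Many structural genes of the axoneme are also transcribed at low levels in cells without motile cilia.

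The libraries held 24571300 to 38384875 counts each. A floor of 3 counts corresponds to 0.0782 to 0.122 CPM, which covers counting error only. The basal markers were abundant, with means over all libraries of 2428 CPM for Krt5, 4717 CPM for Krt14 and 4950 CPM for Acta2. Of 6 markers listed for multiciliated cells, 4 were below 1 CPM in every library. Mcidas had 2 counts in Lgr5+T8hi batch 1, which is 0.0576 CPM, and 0 counts in the other 7 libraries. Gmnc reached at most 0.158 CPM, Deup1 0.188 CPM and Cdc20b 0.0366 CPM. Ccno, a cyclin needed for the many basal bodies of multiciliated cells, had 3.48 to 7.41 CPM, and Foxj1, the sixth marker, is described with the members. Myb and Trp73, which also act in multiciliated cells, had means of 7.71 and 4.36 CPM, and 34 of 65 other motile cilia genes reached 1 CPM in at least 1 population. The label of the set names what its genes are known for, and the markers were mixed in these libraries.

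Members differed widely in level. Per kilobase of the deposited gene length, Foxj1 stood first with a mean of 60.5 CPM per kilobase, 7.15-fold the level of the next member, Rfx2, at 8.46 CPM per kilobase. Foxj1 made up 46.2% of the summed CPM of all members. After Rfx2 came Gas8 (7.69 CPM per kilobase), Rsph9 (7.01), Ccdc114 (4.68), Dnal1 (3.55), Cfap69 (3.15) and Rfx3 (2.51). The deposited lengths of Gas8 and Ccdc114 cover 44.6% and 47.0% of the exon bases annotated for them, so their level per kilobase depends on the gene model. Neighbours in this order were not always separate: by population means on this scale, Rsph9 was above Gas8 in both Lgr5+ populations and below it in both Lgr5- populations.

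**Figure D1:**
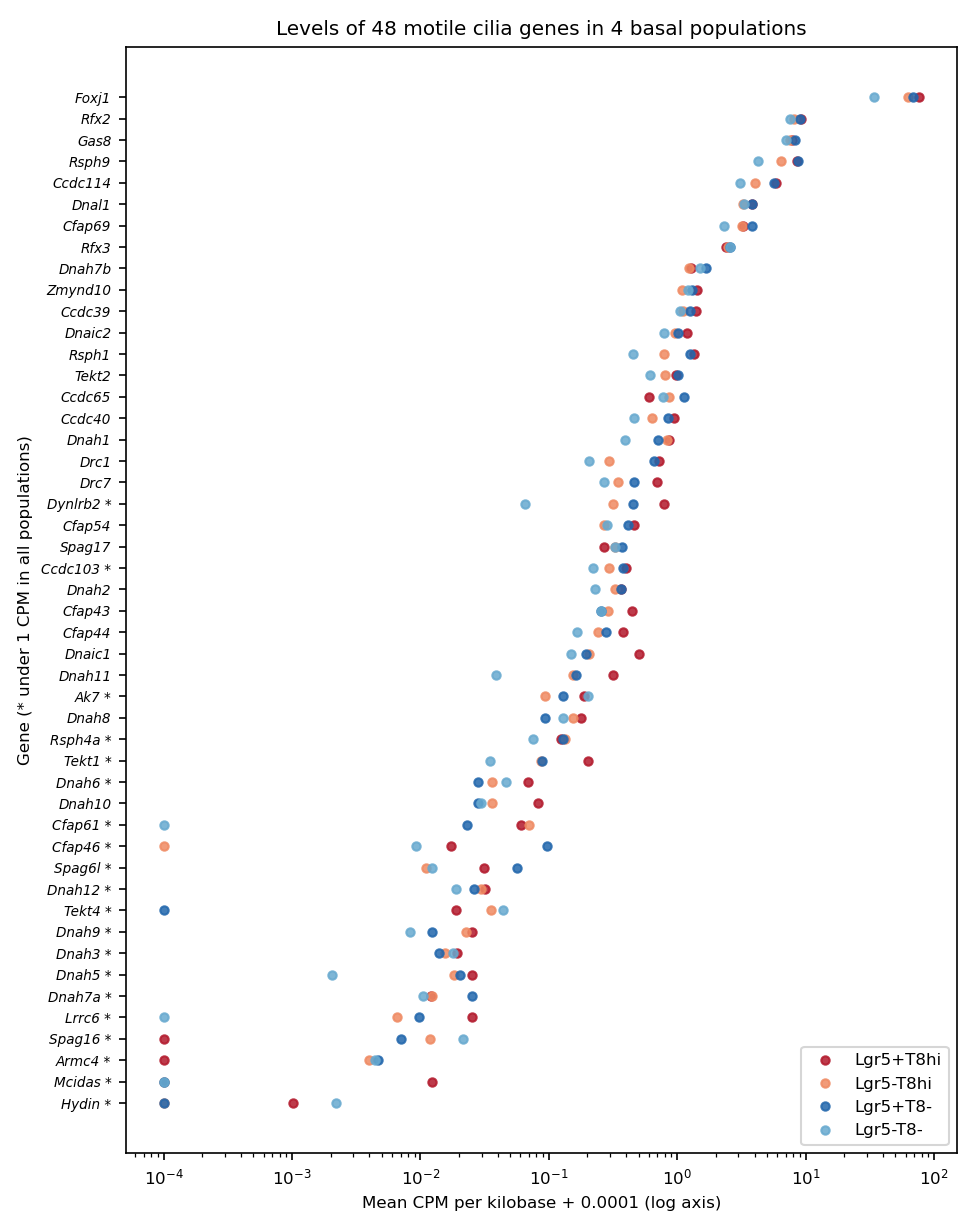
Mean level of each of the 48 motile cilia genes in the 4 basal populations, in CPM per kilobase plus 0.0001 on a log axis. Each dot is the mean of 2 libraries, and an asterisk marks the 20 genes under 1 CPM in every population. Foxj1 lies apart at the top, and the pale blue dots of Lgr5-T8- are the leftmost in many rows of the upper part.

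By role, the members at 1 CPM or more were unevenly spread. All 3 outer arm intermediate or light chains, both axonemal rulers, both inner arm tethers and all 4 members of the nexin-dynein regulatory complex reached it. Among the heavy chains, the motors themselves, 2 of 4 outer arm and 4 of 8 inner arm genes did. The threshold was also reached by 3 of 4 transcription factors, 2 of 4 radial spoke genes, 3 of 7 central pair genes, 1 of 3 docking factors, 1 of 2 assembly factors and 1 of 3 tektins. Neither the enzyme Ak7 nor the light chain Dynlrb2 did. Among those below 1 CPM, deposited lengths of Cfap61 (radial spoke), Cfap46 and Spag16 (central pair) cover 15.8%, 20.4% and 48.2% of annotated exon bases. Their place below the threshold thus depends on the gene model. Just below the threshold lay Ak7 at 0.619 CPM in its highest population, Ccdc103 at 0.715 and Dnah6 at 0.870. Just above it lay Dnah10 at 1.15 CPM, Dnaic1 at 1.25 and Tekt2 at 1.53.

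Some parts of the axoneme were nearly unread. In 6 members no library had more than 3 counts, among them Hydin of the central pair, the docking factor Armc4 and the assembly factor Lrrc6. The outer arm heavy chain Dnah5 had 18 and 7 counts in Lgr5+T8hi, 11 and 10 in Lgr5-T8hi, 10 and 8 in Lgr5+T8-, and 2 and 0 in Lgr5-T8-. In Lgr5-T8- it was thus under the floor in both libraries. Dnah7a and Dnah7b, inner arm heavy chains and near copies, need care: 40.28% of the 50-base words of Dnah7a and 48.39% of those of Dnah7b also occur in other genes. Dnah7b had 11.8 to 24.2 CPM and Dnah7a at most 0.412 CPM, and no source used here says how the counting shared reads between them. Exons of Ccdc39 overlap those of Ttc14 on the opposite strand over 34.22% of their bases, and without a stated strand setting their reads cannot be told apart.

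Sequence near the start sites was read for the members because RFX and forkhead factors are their known regulators. RefSeq promoters (GRCm38.p6, 250 bases before to 50 after the start) were at hand for 41 of the 48 members, in 44 windows, and Foxj1 is not among them. The X-box, the full site of RFX factors, was searched on either strand as GTNNCC and GNAAC on the sides of ATN, and was found in 2 of 41 genes (4.878%), against 0.685% of the 27025 genes with a promoter. The RFX half-site GTTGCCA, again on either strand, was found in 9 of 41 (21.951%), against 5.025% of all. It was also found in 23.256% of the 43 genes for primary cilia and intraflagellar transport that have a promoter. The forkhead word TGTTTAC on either strand was found in 2 of 41 (4.878%), against 4.052%. An X-box can contain the half-site, so these counts overlap, and a match is a run of letters and no measured binding. Each motif was searched only in the form given, so sites with another spacing or other letters were not counted.

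Of the members that were higher in Lgr5+ cells (the comparison that follows), 10 have a promoter, and 2 of these, Cfap44 and Drc1, hold a half-site. Of the other members 31 have a promoter, and 7 of these hold one. Those 2 promoters are shown together with that of Zmynd10, which holds the other match to this form of the X-box. Cfap44 tethers inner arms, Drc1 belongs to the nexin-dynein regulatory complex, and Zmynd10 helps assemble dynein arms. Capitals mark matches to the X-box or the half-site on either strand. The windows are chr16:44394549-44394848 for Cfap44, chr5:30281143-30281442 for Drc1 and chr9:107547054-107547353 for Zmynd10, all on the plus strand of GRCm38.p6.
Cfap44: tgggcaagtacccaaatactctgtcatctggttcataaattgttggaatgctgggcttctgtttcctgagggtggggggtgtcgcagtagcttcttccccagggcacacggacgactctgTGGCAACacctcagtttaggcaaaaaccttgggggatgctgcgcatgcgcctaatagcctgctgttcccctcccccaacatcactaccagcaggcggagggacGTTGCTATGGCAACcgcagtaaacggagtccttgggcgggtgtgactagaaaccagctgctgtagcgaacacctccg
Drc1: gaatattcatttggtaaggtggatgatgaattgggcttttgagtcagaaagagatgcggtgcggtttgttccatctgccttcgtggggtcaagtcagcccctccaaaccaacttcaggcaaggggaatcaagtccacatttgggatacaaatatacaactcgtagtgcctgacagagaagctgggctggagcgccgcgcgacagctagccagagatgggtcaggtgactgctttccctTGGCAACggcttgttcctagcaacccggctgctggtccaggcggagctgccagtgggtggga
Zmynd10: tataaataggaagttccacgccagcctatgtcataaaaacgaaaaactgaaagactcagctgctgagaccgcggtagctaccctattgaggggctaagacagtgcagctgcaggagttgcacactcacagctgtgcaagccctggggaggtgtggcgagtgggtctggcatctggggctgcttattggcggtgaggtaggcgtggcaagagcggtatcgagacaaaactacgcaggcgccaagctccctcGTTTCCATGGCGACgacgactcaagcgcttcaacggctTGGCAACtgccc
In Cfap44 the X-box begins 27 bases before the start and contains a half-site that begins 20 bases before it, and a further half-site begins 130 bases before it. The half-site of Drc1 begins 12 bases before the start. In Zmynd10 the X-box begins at the start itself and a half-site 38 bases after it.

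Expression was compared with edgeR's quasi-likelihood test, fitted to all 8 libraries with batch as a block. Each gate was tested averaged over the other and within each level of the other. Of the 48 members 36 could be tested, and the 12 left out for low counts were all below 1 CPM. Of the tested members 8 were below it as well. A member at low level passes the filter through the populations where it is highest, so counts over the tested members are given as a description beside those of all 16526 genes tested.

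More members passed the test for the Lgr5 gate than in any other comparison. In Lgr5+ against Lgr5- cells, averaged over Tspan8 status, 13 of 36 tested members were higher and 0 lower at an adjusted p under 0.05. That is 36.1% of the members, where 4.23% of all genes tested were higher and 4.86% lower. Before adjustment 21 members had a p under 0.05 as higher and 0 as lower, beside 11.2% and 11.1% of all genes. DESeq2 called 8 higher and limma-voom 14, and both called 0 lower. The median log2 fold change was 0.39 over the members and 0.01 over all genes tested. In both batches alike 30 of 36 members were higher in Lgr5+ cells and 0 were lower, against 34.1% and 29.0% of all genes. The member medians within batch 1 and batch 2 were 0.32 and 0.42. Fewer cells with these transcripts and fewer transcripts per cell cannot be told apart in bulk libraries.

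**Figure D2:**
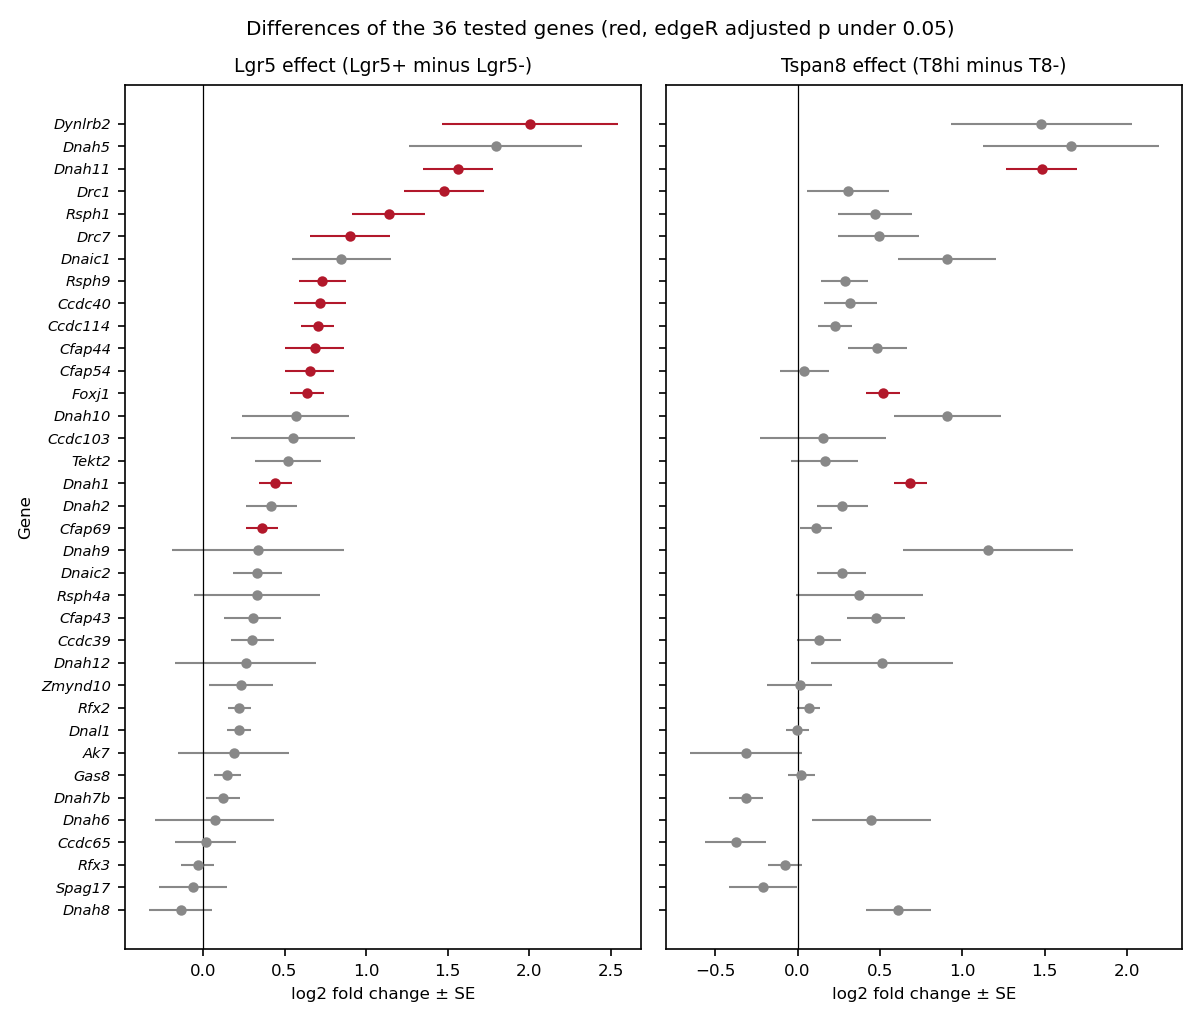
Log2 fold change ± SE of the 36 tested motile cilia genes for the Lgr5 gate (left, Lgr5+ minus Lgr5-) and the Tspan8 gate (right, T8hi minus T8-), in the order of the Lgr5 effect. Red marks an edgeR adjusted p under 0.05, which 13 genes reached on the left and 3 on the right. The values of Dynlrb2 and Dnah5 rest on Lgr5-T8- libraries with 0 to 2 counts.

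Foxj1, the master regulator of motile ciliogenesis (chromosome 11, 116330704 to 116335499), had 210.4 and 185.3 CPM in the Lgr5+T8hi libraries of batch 1 and batch 2. It had 176.3 and 146.6 CPM in Lgr5-T8hi, 209.5 and 144.1 in Lgr5+T8-, and 82.0 and 94.3 in Lgr5-T8-. The Lgr5-T8- libraries lay below all others, Lgr5+T8hi lay above Lgr5-T8hi, and the 2 libraries of Lgr5+T8- spanned nearly the range of both. The log2 fold change for Lgr5 was 0.64 ± 0.10 (SE, adjusted p = 0.0045), a 1.55-fold difference. No other annotated exon overlaps those of Foxj1, and none of its 50-base words occur in other genes.

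For the RFX factors of the set no Lgr5 difference passed the test. Rfx2, which with FOXJ1 drives ciliary genes, had 21.9 to 32.8 CPM, and its Lgr5 difference was 0.22 ± 0.07 (adjusted p = 0.066). Rfx3, which serves primary and motile cilia, had 19.3 to 29.1 CPM and a difference of -0.03 ± 0.10 (adjusted p = 0.89). Among the RFX factors outside the set, Rfx1 was lower in Lgr5+ cells by a log2 difference of -0.27 ± 0.08 (adjusted p = 0.0489).

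Among the dynein motors, Dnah11 differed with the smallest adjusted p. Dnah11, an outer arm heavy chain (chromosome 12, 117877982 to 118199043), had 4.14 and 4.78 CPM in Lgr5+T8hi, 2.73 and 1.84 in Lgr5+T8-, 2.77 and 1.58 in Lgr5-T8hi, and 0.574 and 0.512 in Lgr5-T8-. Both Lgr5+T8hi libraries lay above and both Lgr5-T8- libraries below the remaining 4, which overlapped. The Lgr5 log2 fold change was 1.56 ± 0.21 (adjusted p = 0.000641), a 2.96-fold difference. Exons of Dnah11 overlap those of Cdca7l on the opposite strand over 4.56% of their bases. Cdca7l itself had a Lgr5 difference of -0.03 ± 0.08 (adjusted p = 0.868).

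Dnah1, an inner arm heavy chain (chromosome 14, 31260375 to 31325891), had 11.8 and 10.3 CPM in Lgr5+T8hi, and 10.8 and 10.7 CPM in the Lgr5- cells that were T8hi. It had 10.3 and 8.04 CPM in Lgr5+T8- and 5.29 and 4.83 CPM in Lgr5-T8-. Only the Lgr5-T8- libraries stood apart from the rest. Its Lgr5 log2 fold change was 0.44 ± 0.10 (adjusted p = 0.016). The most abundant heavy chain per kilobase, Dnah7b, differed by 0.12 ± 0.10 (adjusted p = 0.536), within the limits set by its near copies. The outer arm light chain Dnal1, at 3.55 CPM per kilobase, differed by 0.22 ± 0.07 (adjusted p = 0.0808).

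Ccdc114, which docks outer arms to the doublet (chromosome 7, 45923159 to 45948963), followed the Lgr5 gate in every library. It had 13.9 and 15.0 CPM in Lgr5+T8hi and 15.7 and 12.2 in Lgr5+T8-, against 10.4 and 9.54 in Lgr5-T8hi and 8.34 and 6.84 in Lgr5-T8-. The Lgr5+ and Lgr5- libraries did not overlap, and the log2 fold change was 0.70 ± 0.10 (adjusted p = 0.000844). The assembly factor Zmynd10 had 1.46 to 2.79 CPM and a Lgr5 difference of 0.23 ± 0.20 (adjusted p = 0.531). Of the rulers, which set the spacing of inner arms and spokes, Ccdc40 was higher by 0.72 ± 0.16 (adjusted p = 0.0144), while Ccdc39 differed by 0.30 ± 0.13 (adjusted p = 0.201).

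In the nexin-dynein regulatory complex, Drc1 (chromosome 5, 30281335 to 30366695) had 1.58 and 1.66 CPM in Lgr5+T8hi and 1.77 and 1.24 CPM in Lgr5+T8-. Its levels were 0.768 and 0.561 CPM in Lgr5-T8hi and 0.604 and 0.329 CPM in Lgr5-T8-. The Lgr5+ libraries lay above all Lgr5- libraries, with a log2 fold change of 1.48 ± 0.24 (adjusted p = 0.00223), a 2.79-fold difference. Drc7 was higher by 0.90 ± 0.25 (adjusted p = 0.0394). Gas8, the most abundant member of this complex, ranged over 11.4 to 13.96 CPM, with a difference of 0.15 ± 0.08 (adjusted p = 0.32), and Ccdc65 differed by 0.02 ± 0.19 (adjusted p = 0.971).

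Among radial spoke genes, Rsph9 (chromosome 17, 46122038 to 46144242) had 8.26 and 8.02 CPM in Lgr5+T8hi, 9.47 and 6.96 in Lgr5+T8-, 6.12 and 5.93 in Lgr5-T8hi, and 3.29 and 4.79 in Lgr5-T8-. All Lgr5+ libraries were above all Lgr5- libraries, and the log2 fold change was 0.73 ± 0.14 (adjusted p = 0.00766). Rsph1, the scaffold of the spoke head, had 1.61 and 1.54 CPM in Lgr5+T8hi and 1.49 and 1.44 CPM in Lgr5+T8-. In Lgr5-T8hi it had 0.878 and 0.962 CPM and in Lgr5-T8- 0.423 and 0.622 CPM. These groups did not overlap either, with a log2 fold change of 1.14 ± 0.23 (adjusted p = 0.00743).

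The other 4 called members were in the central pair, the tethers and the light chains. Cfap54 and Cfap69 of the central pair were higher by 0.66 ± 0.15 (adjusted p = 0.0165) and 0.36 ± 0.10 (adjusted p = 0.0375). The tether Cfap44 was higher by 0.69 ± 0.18 (adjusted p = 0.0345), whereas its partner Cfap43 differed by 0.30 ± 0.18 (adjusted p = 0.349). The light chain Dynlrb2 rests on few reads, with 15 and 10 counts in Lgr5+T8hi, 8 and 4 in Lgr5-T8hi, 11 and 3 in Lgr5+T8-, and 1 and 1 in Lgr5-T8-. Its adjusted p was 0.0369, and its fold change is not given because both Lgr5-T8- libraries are under the floor. Tekt2, the tektin at the highest level per kilobase, differed by 0.52 ± 0.20 (adjusted p = 0.151), and 25.68% of its exon bases overlap a gene on the opposite strand.

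**Figure D3:**
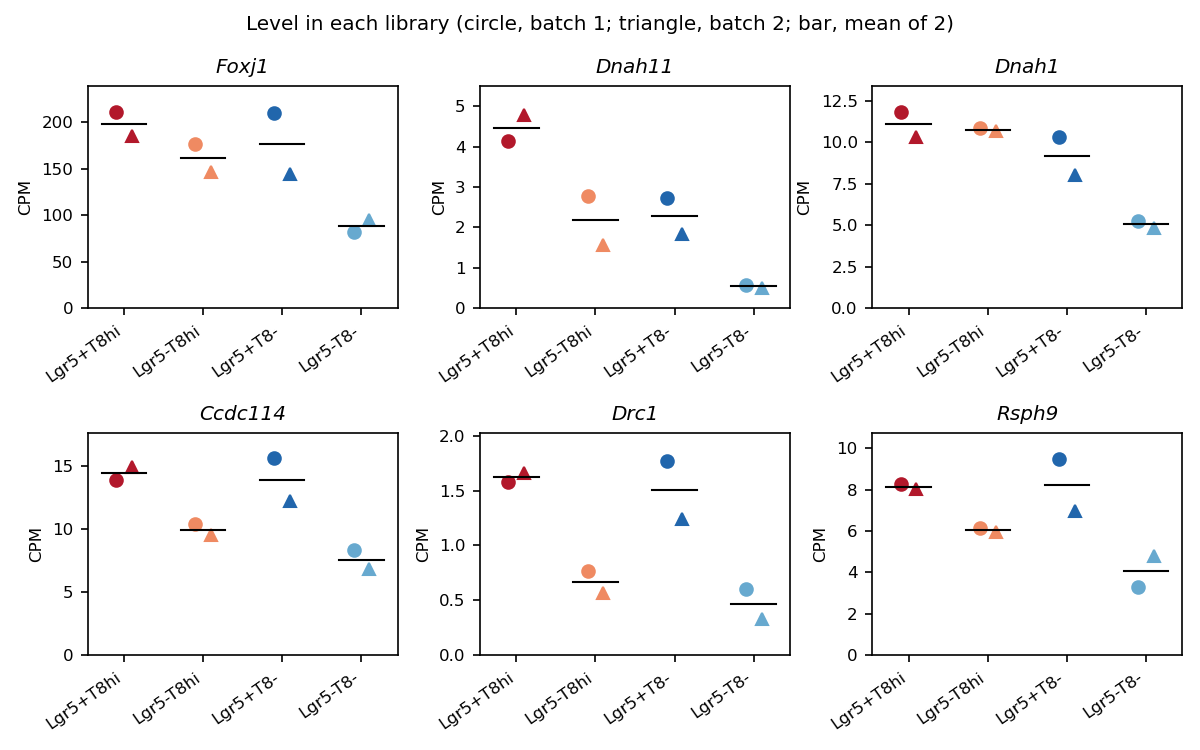
CPM of 6 motile cilia genes in each library, with a circle for batch 1, a triangle for batch 2 and a bar at the mean of the 2 libraries, on axes that start at 0. Ccdc114, Drc1 and Rsph9 were above every Lgr5- library in all 4 Lgr5+ libraries, while Foxj1, Dnah11 and Dnah1 were lowest in both Lgr5-T8- libraries.

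The Lgr5 calls varied in how often they were lost when 1 library was left out. An omission also leaves fewer residual degrees of freedom, so a call can be lost while its estimate stays. Over the 8 omissions the log2 fold change was 0.61 to 0.76 for Cfap44 and 0.62 to 0.69 for Cfap54. It ranged more widely for Ccdc40, over 0.53 to 0.85. Dnah11, Drc1, Foxj1 and Ccdc114 stayed past the threshold when any 1 library was left out. Rsph1 lost its call without Lgr5+T8hi replicate 1 (adjusted p = 0.06). Rsph9 lost it without Lgr5+T8- replicate 1 (0.0524) or Lgr5+T8hi replicate 1 (0.0643). The other 7 called members each lost theirs in 4 to 8 of the 8 omissions, with adjusted p of 0.052 to 0.293. The number of members called higher fell from 13 to 5 without Lgr5+T8hi replicate 1 or without Lgr5+T8- replicate 1, to 6 without Lgr5-T8hi replicate 1 or without Lgr5+T8hi replicate 2, and to 8 without Lgr5-T8hi replicate 2. Without the batch block it was 2, namely Dnah11 and Drc1, and Foxj1 then had an adjusted p of 0.0991. The share of all genes called in these other fits was not set beside the member counts, so these falls are not compared with it.

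Few members passed the test for the Tspan8 gate. In T8hi against T8- cells, averaged over Lgr5 status, 3 of 36 were higher and 0 lower, which is 8.33% of the members beside 9.13% of all genes tested that were higher and 5.52% that were lower. The share called higher was thus near that of all genes. Without adjustment 12 members were higher and 1 lower at p under 0.05, beside 14.3% and 13.4% of all genes. DESeq2 called 3 higher and 0 lower, and limma-voom 4 higher and 1 lower. The median log2 fold change was 0.30, against -0.02 over all genes tested, and within the batches it was 0.11 and 0.39. In both batches alike 24 of 36 members were higher in T8hi cells and 2 were lower (66.7% and 5.56%), against 30.9% and 38.2% of all genes.

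The 3 genes called in this comparison were also called for Lgr5. Dnah11 was higher in T8hi cells by 1.48 ± 0.21 on the log2 scale (adjusted p = 0.000601), and Dnah1 by 0.68 ± 0.10 (adjusted p = 0.000672). Foxj1 was higher by 0.52 ± 0.10 (adjusted p = 0.0084), and its call was lost without Lgr5+T8hi replicate 1 (0.0511), without Lgr5+T8hi replicate 2 (0.0566) and without the block (0.101). The number of members called higher was 6 without Lgr5-T8- replicate 2. Drc1 and Ccdc114, clear of overlap in the Lgr5 comparison, differed between T8hi and T8- cells by 0.31 ± 0.25 (adjusted p = 0.472) and 0.23 ± 0.10 (adjusted p = 0.165). Cdca7l, whose exons overlap those of Dnah11, was lower in T8hi cells, by -0.28 ± 0.08 (adjusted p = 0.0248).

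Members were often highest with both markers and lowest with neither. Of the 36 tested, 26 had their highest mean CPM in Lgr5+T8hi (72.2%, against 24.7% of all genes tested) and 24 their lowest in Lgr5-T8- (66.7%, against 31.3%). Lgr5+T8- was highest for 7 members, Lgr5-T8- for 2 and Lgr5-T8hi for 1. Ccdc65 and Spag17 were among the exceptions and were lowest in Lgr5+T8hi. Exons of Spag17 overlap those of Spag17os and Wdr3 on the opposite strand over 7.95% of their bases, and the strand setting is not stated. Wdr3, with a mean of 35.9 CPM, was itself lowest in Lgr5+T8hi, and its part in the level of Spag17 was not tested. Single libraries departed from this order: the summed level of all members was 423.5 CPM in Lgr5+T8- batch 1, above the 414.5 and 385.4 CPM of the Lgr5+T8hi libraries. Rsph9 and Cfap69 were also highest in that library.

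**Figure D4:**
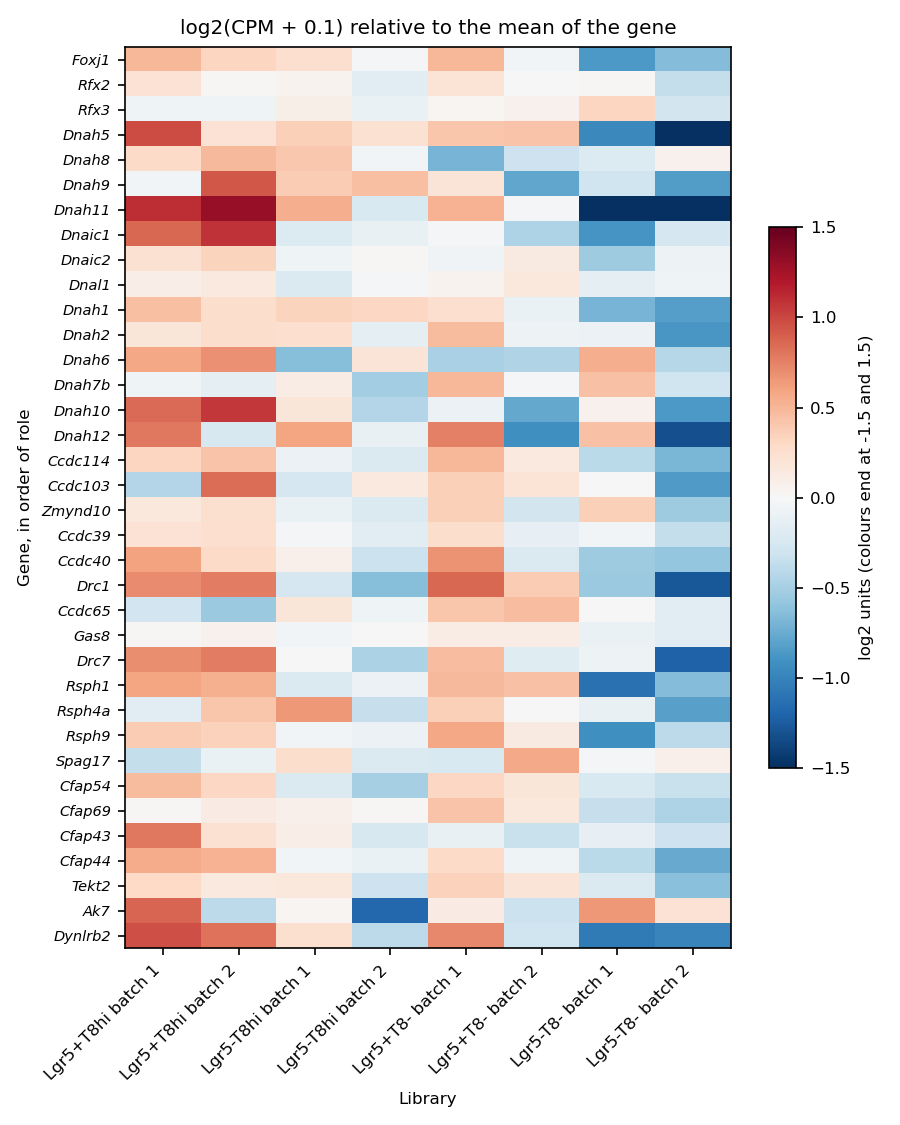
Level of the 36 tested motile cilia genes in each library as log2(CPM + 0.1) minus the mean of the gene, in order of role, with colours that end at -1.5 and 1.5. The Lgr5+T8hi columns are mostly red and the Lgr5-T8- columns mostly blue, and Rfx3, Gas8 and Dnal1 are pale throughout.

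At a fixed level of the other marker, the Lgr5 gate gave 9 calls in T8- cells and 1 in T8hi cells. The Tspan8 gate gave similar numbers, 3 in Lgr5- cells and 2 in Lgr5+ cells. Among T8- cells, 9 of 36 members (25.0%) were higher in Lgr5+ than in Lgr5- cells and 0 lower, beside 3.81% and 5.05% of all genes tested. Unadjusted, 16 were higher and 0 lower at p under 0.05, beside 10.6% and 11.6% of all genes, and DESeq2 and limma-voom called 0 lower. The 3 smallest adjusted p were those of Dnah11 (log2 fold change 2.05 ± 0.34, adjusted p = 0.00253), Ccdc114 (0.86 ± 0.14, adjusted p = 0.00269) and Foxj1 (0.97 ± 0.15, adjusted p = 0.00333). The count fell to 2 without Lgr5+T8- replicate 1, when Ccdc114 had an adjusted p of 0.0645, and to 1 without the block. Among T8hi cells, 1 member (2.78%) was higher in Lgr5+ cells and 0 lower, beside 2.29% and 1.05% of all genes. Unadjusted, the numbers at p under 0.05 were 14 and 0, beside 8.16% and 5.36%, and DESeq2 and limma-voom called 0 lower. The single call was Dnah11 (1.07 ± 0.26, adjusted p = 0.0461), and leaving out any library but the 2 of Lgr5-T8- ended it, with adjusted p of 0.0508 to 0.525. It was also lost with RLE normalization (0.0501) and DESeq2 (0.0715), whereas 4 members were called without either of the Lgr5-T8- libraries.

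For the Tspan8 gate, among Lgr5- cells, 3 of 36 members (8.33%) were higher in T8hi and 0 lower, beside 3.70% and 3.36% of all genes tested. They were Dnah1 (1.08 ± 0.14, adjusted p = 0.000621), Dnah11 (1.97 ± 0.34, adjusted p = 0.00327) and Foxj1 (0.85 ± 0.15, adjusted p = 0.00716). Without Lgr5-T8hi replicate 1 the calls of Dnah11 (0.0532) and Foxj1 (0.0526) were lost, and without the block 0 members were called. With unadjusted p under 0.05, 10 were higher and 1 was lower, beside 9.86% and 9.15% of all genes. Among Lgr5+ cells, 2 members (5.56%) were higher and 0 lower, beside 7.27% and 2.17% of all genes, with 6 and 2 at an unadjusted p under 0.05, beside 12.0% and 9.13%. The 2 were Dnah11 (0.99 ± 0.27, adjusted p = 0.0357) and the inner arm heavy chain Dnah10 (1.56 ± 0.44, adjusted p = 0.0462). DESeq2 called neither of them, and it and limma-voom called 0 lower for Tspan8 in either kind of cell. Leaving out either Lgr5+T8- library, or Lgr5+T8hi replicate 2, ended both calls (adjusted p of 0.0846 to 0.473). That of Dnah10 was lost also without Lgr5-T8hi replicate 1 (0.0562) or Lgr5+T8hi replicate 1 (0.0505). Without Lgr5-T8- replicate 1 the count was 5, and without its replicate 2 it was 4.

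The difference between these simple effects was tested as the interaction, the Tspan8 effect in Lgr5+ cells minus that in Lgr5- cells. Of the 36 members 0 passed in either direction, where 2.18% of all genes tested were higher and 0.363% lower. DESeq2 and limma-voom also called 0. Without adjustment 2 members were higher and 6 lower at p under 0.05, beside 7.68% and 4.11% of all genes, and the median was -0.29 against -0.03 over all genes. The estimate was -0.67 ± 0.21 for Foxj1 (adjusted p = 0.179), -0.80 ± 0.20 for Dnah1 (adjusted p = 0.065) and -0.98 ± 0.43 for Dnah11 (adjusted p = 0.403). With no filter on low counts 1 member was lower, and 1 was without Lgr5-T8- replicate 2. The dependence of either gate on the other was therefore not shown for the genes named here.

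In batch 2 against batch 1, 4 of 36 members were lower and 0 higher, beside 16.9% and 16.0% of all genes tested. Unadjusted, 6 were lower and 0 higher at p under 0.05, beside 21.9% and 21.8%. The 4 were Dnah7b (-0.50 ± 0.11, adjusted p = 0.00432), Dnah12 (-1.68 ± 0.45, adjusted p = 0.0142), Rfx2 (-0.25 ± 0.07, adjusted p = 0.0168) and Ak7 (-1.02 ± 0.35, adjusted p = 0.0405). DESeq2 called 2 of 36 lower, and limma-voom 5, and both called 0 higher. Leaving out single libraries gave 1 to 6, with 1 without Lgr5+T8- replicate 1, and Dnah7b passed in all 8 omissions.

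Genes of motile cilia outside the set were read from a list of 65, of which 41 were tested. In the Lgr5 comparison 11 of the 41 (26.8%) were higher and 0 lower, beside 4.23% and 4.86% of all genes, with a median of 0.32. In the Tspan8 comparison 5 (12.2%) were higher and 1 (2.44%) lower, near the 9.13% and 5.52% of all genes, with a median of 0.21. Tppp3, a tubulin-binding protein of ciliated epithelia and the member of this list with the highest level per kilobase, had 189.2 and 167.9 CPM in Lgr5+T8hi, 171.1 and 139.7 in Lgr5+T8-, 121.4 and 108.9 in Lgr5-T8hi, and 66.4 and 62.4 in Lgr5-T8-. It was higher in Lgr5+ cells by 0.95 ± 0.06 (adjusted p = 5.59e-06) and in T8hi cells by 0.52 ± 0.06 (adjusted p = 0.000198).

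Myb, a transcription factor that acts early in multiciliated cells and also in dividing progenitors, had 13.5 and 12.4 CPM in Lgr5+T8hi, 7.98 and 6.68 in Lgr5+T8-, 8.10 and 6.87 in Lgr5-T8hi, and 3.32 and 2.82 in Lgr5-T8-. Like Dnah11 it was highest in both Lgr5+T8hi and lowest in both Lgr5-T8- libraries, with the other 4 between. It was higher in Lgr5+ cells by 1.02 ± 0.10 (adjusted p = 8.52e-05) and in T8hi cells by 1.05 ± 0.10 (adjusted p = 3.67e-05). Both calls, like those of Tppp3, held under every alternative fit. Trp73, which acts above Foxj1 in multiciliated cells, went the other way: it was lower in T8hi cells by -0.78 ± 0.15 (adjusted p = 0.00331). It also differed by 1.16 ± 0.15 between batches, and without the block its adjusted p was 0.575.

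Genes of primary cilia and intraflagellar transport were at 1 CPM or more in all 49 cases, and all were tested. In the Lgr5 comparison 10 of 49 (20.4%) were higher and 0 lower, beside 4.23% and 4.86% of all genes, with a median of 0.14. Its difference from the motile cilia genes was not tested. The unadjusted counts at p under 0.05 were 19 and 0, beside 11.2% and 11.1%. Ift20, the gene of this list with the second highest level per kilobase, differed by 0.03 ± 0.08 (adjusted p = 0.858), and Arl13b, the highest, by 0.11 ± 0.07 (adjusted p = 0.415). In the Tspan8 comparison 0 were higher and 0 lower, beside 9.13% and 5.52% of all genes. At an unadjusted p under 0.05 the counts were 3 and 5, beside 14.3% and 13.4% of all genes. Summed over the list, these genes had 1324 to 1492 CPM in Lgr5+ and 1262 to 1415 CPM in Lgr5- libraries, which overlap. The members without Foxj1 had 184.4 to 214.0 CPM in Lgr5+ and 137.3 to 183.4 CPM in Lgr5- libraries. These ranges lay close but did not overlap. With Foxj1 included they overlapped, at 328.5 to 423.5 and 231.6 to 359.7 CPM.

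**Figure D5:**
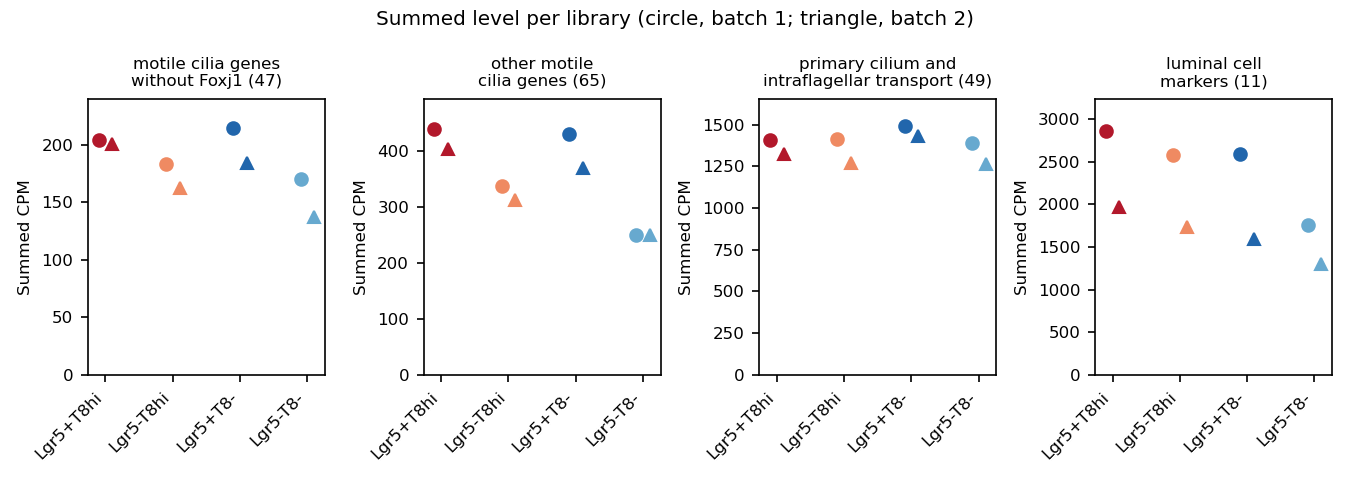
Summed CPM per library of the motile cilia genes without Foxj1, the other motile cilia genes, the genes of primary cilia and intraflagellar transport, and the luminal markers, with the number of genes in brackets, circles for batch 1 and triangles for batch 2, on axes that start at 0. The first 2 lists are lower in both Lgr5- populations, and the luminal markers differ between batches in every population.

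Markers of other cell types moved with the gates as well. Of 11 luminal markers, 4 were higher and 1 lower in Lgr5+ cells, and 6 were higher and 0 lower in T8hi cells. Their summed level was 1590 to 2864 CPM in Lgr5+ and 1300 to 2584 CPM in Lgr5- libraries, and all 11 were at 1 CPM or more. Among those called higher, and named after their values were seen, were the luminal keratins Krt8 and Krt18. They were higher in Lgr5+ cells by 0.29 ± 0.07 (adjusted p = 0.0264) and 0.48 ± 0.10 (adjusted p = 0.0104). The median over the 11 luminal markers was 0.25, and 8 were above 0. Before adjustment 6 were higher and 2 lower at p under 0.05. In the Lgr5 comparison, averaged over Tspan8 status, edgeR called 0 of 7 endothelial, 0 of 7 immune and 0 of 6 glial markers. Before adjustment, 1, 2 and 0 of these were higher and 0, 0 and 2 lower at p under 0.05. Of fibroblast markers 2 of 7 were higher and 2 lower, of pericyte markers 0 of 6 higher and 2 lower, of basal markers 2 of 8 higher and 2 lower, and of neuron markers 0 of 4 tested higher and 1 lower. For Lgr5, 4.23% of all genes tested were called higher and 4.86% lower, or 11.2% and 11.1% before adjustment. In T8hi cells more of these markers were higher: 6 of 7 fibroblast, 3 of 7 endothelial, 3 of 7 immune, 5 of 6 pericyte and 3 of 6 glial markers, with 0 lower in each list, while 5 of 8 basal markers were lower and 0 higher. Of 4 neuron markers tested 1 was higher and 1 lower. All genes tested were called higher in 9.13% and lower in 5.52% of cases for Tspan8. For endothelial and immune markers the Lgr5 average held opposite moves. Among T8hi cells 1 and 4 of 7 were higher in Lgr5+ cells and 0 lower (2.29% and 1.05% of all genes). List medians were 1.27 and 1.36. Among T8- cells 0 were higher and 1 and 0 lower (3.81% and 5.05%), with medians of -0.55 and -0.62. Fibroblast markers moved both ways too, with 2 of 7 higher and 0 lower among T8hi cells (median 0.76). Among T8- cells 0 of them were higher and 3 lower (median -0.06). Of 6 pericyte markers, 0 were higher and 0 lower among T8hi cells (median 0.36). Among T8- cells 0 pericyte markers were higher and 3 lower (median -0.57). The summed endothelial level was 388.4 and 453.8 CPM in Lgr5+T8hi, against 79.9 to 241.5 CPM in the other populations. The part of such cells in the differences of the motile cilia genes was not tested.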

How the data were processed

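Per the labels, total RNA of sorted cells was sequenced single-end. The authors deposited raw read counts per Entrez gene, not normalized, and a gene length. Tools in the submitters' processing notes, listed without roles, are featureCounts, limma 3.24.14, edgeR 3.10.2 and CASAVA 1.8.2, with the build mm10 (GRCm38). Aligner and strand setting are not given in the sources used here. Symbols came from RefSeq (25260 genes matched, and unmatched identifiers held 2.56 to 2.86% of the counts), and overlaps and shared 50-base words from GENCODE vM21.

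The members and all lists were chosen with earlier results of these data known. Counts were fitted with edgeR 4.0.16 (R 4.3.3): TMM, filterByExpr with a minimum count of 10, population plus batch, a robust quasi-likelihood F-test with 3 residual degrees of freedom, two-sided, and Benjamini-Hochberg adjustment over 16526 genes. SE is the log2 fold change over the root of F. CPM used TMM-adjusted library sizes. The fit was also run on simulated counts drawn with independent noise, and no result here rests on that run. Replicates differed by more than sampling noise (chi-square per degree of freedom 36.0 to 57.3). Same-numbered libraries share a batch per the labels, and their deviations correlated at 0.415 to 0.550 over 6 pairs, so batch is the block. Alternatives were no block, RLE, no filter, a filter of 1 CPM in 4 libraries, DESeq2 1.42.0, limma-voom 3.58.1 and leaving out each library. The members named were the transcription factors, the highest per kilobase in each role, those called in a main comparison or leading a simple effect, and those nearest 1 CPM. From the other lists the rule took the 3 with the smallest adjusted p for Tspan8 and the 3 highest. Hydin, Armc4, Lrrc6, Dnah5, Ccdc65, Spag17 and the luminal keratins were named after their values were seen. Cfap61, Cfap46 and Spag16 were named for their gene models.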

Additional observations from a re-analysis of the deposited data

Results flagged for a closer look

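Tppp3, a motile cilia gene outside the set, had a Tspan8 effect that differed between Lgr5+ and Lgr5- cells by -0.61 ± 0.13 on the log2 scale in edgeR's interaction test (adjusted p = 0.0282). Its mean level was 178.5 CPM in Lgr5+T8hi and 155.4 CPM in Lgr5+T8-, against 115.1 and 64.4 CPM in Lgr5-T8hi and Lgr5-T8-. The call was lost without the batch block (adjusted p = 0.551), and without either library of Lgr5-T8hi (0.144 for replicate 1, 0.147 for replicate 2), either library of Lgr5+T8hi (0.164 and 0.139) or replicate 1 of Lgr5+T8- (0.125).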

How the results depend on the processing

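No difference called for a member turned its direction under any alternative. Without the replicate block the members higher were 2 for Lgr5 (13 with it), 1 for Lgr5 in T8- cells (9 with it), and 0 for Lgr5 in T8hi cells (1 with it), Tspan8 in Lgr5+ cells (2 with it) and Tspan8 in Lgr5- cells (3 with it). DESeq2 gave 8 higher for Lgr5, 0 for Lgr5 in T8hi cells, 0 for Tspan8 in Lgr5+ cells and 2 lower for batch. RLE normalization gave 0 for Lgr5 in T8hi cells. With no filter on low counts, 3 were higher for Lgr5 in T8hi cells, and 1 was lower for Tspan8 and 1 for the interaction. With at least 1 CPM in 4 libraries, 0 were higher for Lgr5 in T8hi cells, 1 for Tspan8 in Lgr5+ cells, and 2 lower for batch. With limma-voom 1 was lower for Tspan8 and 1 higher for Tspan8 in Lgr5+ cells. The cause was not tested, and the share of all genes called under each alternative was not set beside these counts. Leaving out each library in turn gave 2 to 6 higher and 0 to 1 lower for Tspan8, 5 to 11 higher for Lgr5, 0 to 1 lower for the interaction, 0 to 5 higher and 0 to 1 lower for Tspan8 in Lgr5+ cells, 1 to 4 for Tspan8 in Lgr5- cells, 0 to 4 for Lgr5 in T8hi cells, 2 to 9 for Lgr5 in T8- cells and 1 to 6 lower for batch. In each omission the lone library left in a population is assumed to vary as the rest do. Of the 13 Lgr5 calls 2 held under all alternatives and 4 in all omissions. The number of members at the threshold of 1 CPM, 28, was 31 at 0.5 CPM and 22 at 2 CPM, and 28 to 29 with a library left out. Depth left 12 members untested, and the call of Dynlrb2 rests on 1 to 15 counts per library.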
